A study of Mus musculus with 4 samples.

Results

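The transcripts described here are those of Mdm2, of its chromosomal neighbour Slc35e3, of p53 itself (Trp53), of the Mdm2 relative Mdm4 and of 6 established p53 target genes, Cdkn1a, Ccng1, Zmat3, Sesn1, Phlda3 and Bbc3. These 10 genes were picked by symbol from the 16051 genes of the deposited table. They were chosen because Mdm2 and Slc35e3 were seen to be abundant in these libraries, and with the treatment difference in view, so their levels and differences are given as a description without a test. The cells were 3T3-L1, a mouse embryonic fibroblast line of NIH Swiss origin that forms adipocytes in culture, and the paper describes them as differentiated. They received 100 μM risperidone (an antipsychotic drug) or DMSO, its vehicle, for 48 h, and mRNA-seq was carried out on 2 libraries per treatment. Each library held RNA pooled from 3 cultures of this single cell line, so variation from culture to culture was averaged out before sequencing. The sample labels call the control untreated and mention retina and embryo, whereas the paper names DMSO as the control of a cultured line. Total counts per library lay between 15883712 and 16374119.

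The tumour suppressor p53 is a transcription factor whose protein is kept low by Mdm2, a ubiquitin ligase that marks it for degradation, and by Mdm4, which binds and masks its activation domain. Under stress p53 is released and activates genes that halt the cell cycle, repair DNA, adjust metabolism or start apoptosis, and Mdm2 is itself a p53 target, which closes a feedback loop. Mdm2 takes its name from the double minute chromosomes of a transformed mouse 3T3 line, in which the gene was found amplified. Gene copy number and protein were not measured here. In adipocytes p53 is known for its links to lipid handling, senescence and insulin response.

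Markers of the cells were read before the comparison. Of 10 adipocyte markers, 3 were above 1 FPKM (fragments scaled by transcript length and library depth) in each library, namely Fabp4, Pparg and Lpl, while Adipoq, Plin1, Cidec, Lep, Retn, Cebpa and Cfd were under 1 FPKM in all 4. All 7 preadipocyte and fibroblast markers were above 1 FPKM in each library. For most of the adipocyte markers, adiponectin (Adipoq) and perilipin (Plin1) among them, these RNA values go against the description of the cells as differentiated, and the cells are called 3T3-L1 here. The paper induced the cells with a hormone mix. It reports Oil Red O staining of lipid, RT-PCR of adiponectin and PPARG protein in cells it calls differentiated, none of which these libraries measure. The summed adipocyte markers lay at 377 and 431 FPKM with DMSO and at 265 and 275 FPKM with risperidone, and the summed fibroblast markers at 1370 and 1343 against 1668 and 1680 FPKM. Most of the adipocyte sum came from Lpl (mean 242 FPKM with DMSO and 191 FPKM with risperidone) and Fabp4 (149 and 65.3 FPKM). Mean Pparg was not lower, at 12 and 12.6 FPKM, so the adipocyte sum does not speak for these markers as a group. The fibroblast markers did not move as a group, since mean Col1a1 was 374 FPKM with DMSO and 694 FPKM with risperidone and Dlk1 and Thy1 were also higher, while the means of the other 4 were lower, Col3a1 at 107 against 51.5 FPKM among them. The part of these marker differences in the results given here was not tested. Retina markers summed to 1.23 FPKM or less in every library. Risperidone replicate 2 stood apart, since 11 kidney markers summed to 192 FPKM in it and to 2.72 FPKM or less in the other 3 libraries. The kidney markers were listed with earlier results of these data known. Each difference was also computed without risperidone replicate 2.

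Mdm2 was by far the most abundant of the 10 transcripts, followed by Slc35e3, and both were lower with risperidone. Of the p53 targets, Cdkn1a was lower, Ccng1, Phlda3 and Zmat3 were slightly higher, Sesn1 was close to its DMSO level, and the difference of Bbc3, the gene with the fewest counts, was about as large as its standard error. All 10 genes passed the filter of a mean of 1 FPKM. In the fit over the 10243 genes that passed it, 3 of the 10 were past the threshold as higher, where the share of all genes was 32.1%, and 4 as lower, where it was 32.2%. Nothing is read from these counts, because the genes were chosen with this contrast in view. The log2 fold change, risperidone over DMSO after TMM scaling of the counts, was below 0 for 7 of the 10 genes, and for 6 to 8 under the alternatives run for all 10. In bulk RNA of this kind, fewer cells that express a gene and less RNA per cell cannot be told apart.

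**Figure D1:**
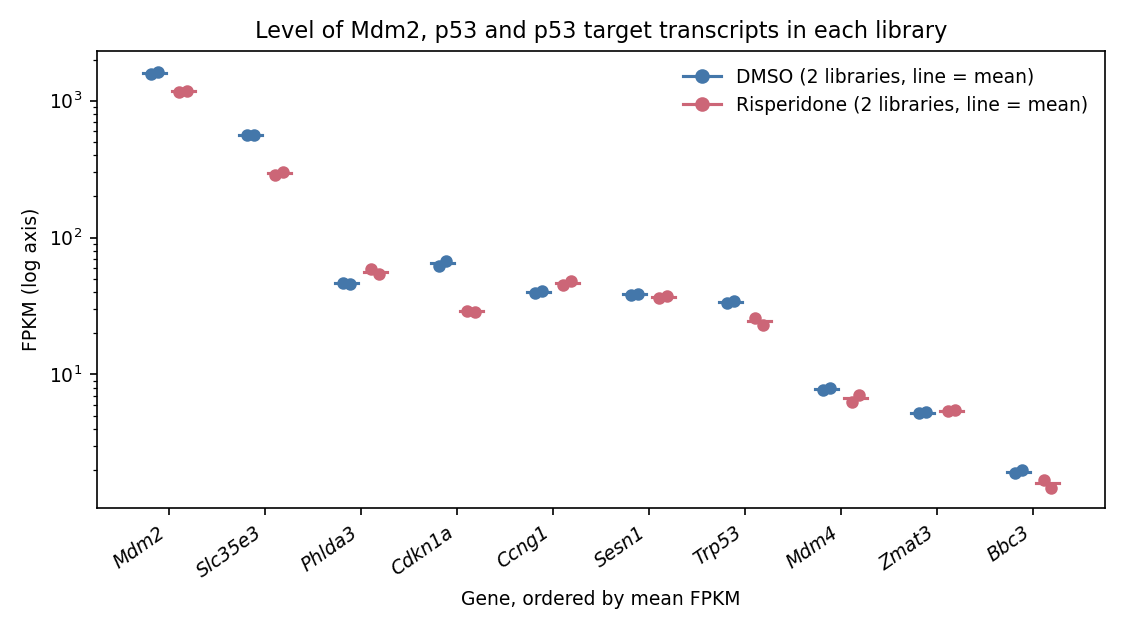
FPKM of the 10 genes (log axis) in the 2 DMSO and 2 risperidone libraries, with a line at each mean. Mdm2 lay between 1158 and 1633 FPKM, and Cdkn1a lay between 62.4 and 67.9 FPKM with DMSO and between 28.7 and 29.1 FPKM with risperidone.

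Mdm2 (NCBI Gene 17246, GRCm38.p6 chr10:117688875-117710758, minus strand) stood at 1572 and 1633 FPKM in the DMSO libraries and at 1158 and 1184 FPKM in the risperidone libraries. The treatments did not overlap, and in each library Mdm2 exceeded every p53 pathway gene read here except Rpl11 in risperidone replicate 1 (1511 FPKM). Its counts, 77153 and 77841 with DMSO and 57097 and 57649 with risperidone, were 0.471% and 0.49% of all counts against 0.351% and 0.361%. By FPKM it held rank 23 and 21 of 16051 genes with DMSO and rank 82 and 72 with risperidone. By the mean over the 4 libraries it was at rank 49, among ribosomal protein, glycolytic and chaperone transcripts. Mdm2 was lower with risperidone by a log2 fold change of -0.34 (standard error 0.0477), which is 0.79 of the DMSO level, and this value lay between -0.37 and -0.31 with any 1 library left out. The count and FPKM of a library together give the effective transcript length that the quantification used, and for Mdm2 it was 2997 to 3046 bases, with little difference between treatments.

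Slc35e3 (NCBI Gene 215436, chr10:117733678-117746358, minus strand), which encodes a member of a family of nucleotide sugar transporters, was read at 561 and 566 FPKM with DMSO and at 288 and 302 FPKM with risperidone. Its rank by FPKM was 131 and 132 with DMSO and 234 and 216 with risperidone, so it lay among the most abundant transcripts under both treatments without overlap between them. The log2 fold change was -0.84 (standard error 0.0486), or 0.56 of the DMSO level, and between -0.87 and -0.81 with any 1 library left out. Slc35e3 thus differed by a larger factor than Mdm2. The ratio of Mdm2 to Slc35e3 FPKM within a library was 2.80 and 2.89 with DMSO and 4.02 and 3.92 with risperidone, and the effective length of Slc35e3 was 3348 to 3357 bases in all 4 libraries.

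Both genes are read from the minus strand and are separated by 22919 bases. On the other side of Mdm2 lies Cpm, a carboxypeptidase gene on the plus strand whose end is 1522 bases from the end of Mdm2, and beyond Slc35e3 lies Nup107, a nuclear pore gene 4262 bases away. Cpm was listed at 1.27 and 1.32 FPKM with DMSO and at 0.96 and 0.90 FPKM with risperidone. Nup107 was at 7.03 and 7.02 FPKM with DMSO and at 7.38 and 7.15 FPKM with risperidone. The high levels were therefore measured for Mdm2 and Slc35e3 and for neither of the genes that flank them. Within a library the ratio of Mdm2 to Nup107 FPKM was 224 and 233 with DMSO and 157 and 166 with risperidone.

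To see how far high levels extend along the chromosome, the 15 listed genes on each side of Mdm2 were read. Without Slc35e3 these were 29 genes, whose median level was 3.99 FPKM, against 5.05 FPKM for all genes of the table. The order depended on the genes taken: with 10 genes on each side the median was 15.4 FPKM, and over the 18 of the 29 that passed the filter it was 18 FPKM, against 14.2 FPKM for all genes tested. The neighbours as a group are therefore called neither lower nor higher than other genes. Only 1 of them, Cct2, a chaperonin subunit, had a mean above 100 FPKM. Cct2 was at 207 FPKM in both DMSO libraries and at 345 and 323 FPKM with risperidone, with a mean of 270 FPKM. Mean Mdm2 was 5.13 times the mean of Cct2. Slc35e3 was above Cct2 with DMSO (563 against 207 FPKM) and below it with risperidone (295 against 334 FPKM). The next neighbours by level were Rap1b, a small GTPase, at 78.6 FPKM, Tmbim4 at 70.1 FPKM, Llph at 37.8 FPKM and Cand1 at 30.9 FPKM. On the Cpm side, Cpsf6 had a mean of 15.4 FPKM and Lyz1 one of 0.125 FPKM.

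**Figure D2:**
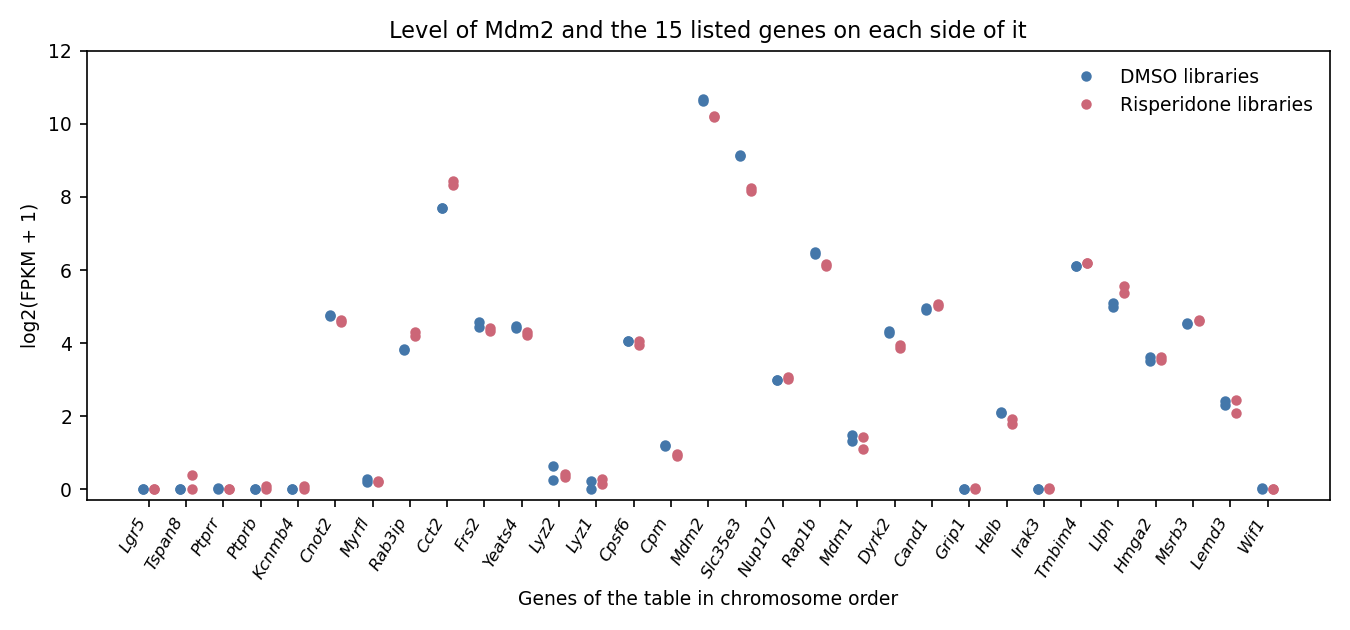
Level as log2(FPKM + 1) of Mdm2 and the 15 listed genes on each side of it, in chromosome order, for each of the 4 libraries. Mdm2 is the highest point under both treatments, Slc35e3 comes next with DMSO and Cct2 with risperidone, and the flanking genes Cpm and Nup107 lay near 1.11 and 7.14 FPKM.

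The treatment difference of these neighbours went both ways. Of the 18 neighbours tested, 6 were higher and 2 lower with risperidone by edgeR's quasi-likelihood test, Benjamini-Hochberg adjusted, and 10 did not pass the threshold. These are 33.3% and 11.1% beside 32.1% and 32.2% of all genes tested, so the share of higher neighbours was near that of all genes. The median log2 fold change was -0.03 beside 0.00 for all genes tested. The lower genes were Rap1b (-0.24, adjusted p = 0.0014 by edgeR) and Dyrk2 (-0.48, adjusted p = 3.9e-05 by edgeR), the latter a kinase gene named after its values were seen. Without risperidone replicate 2 the lower genes were 4, with Cpsf6 (-0.15) and Helb (-0.33) added, which is 22.2% beside 32.7% of all genes tested. After rescaling to TPM (the same kind of level with an equal sum in every library), which lowered the median of all genes to -0.22, limma gave 3 higher and 7 lower, or 16.7% and 38.9% beside 15% and 51.7% of all genes tested. Cpm was not past the threshold, its log2 fold change being -0.38 (adjusted p = 0.0766 by edgeR). Nup107 was at 0.14 (adjusted p = 0.132 by edgeR). Cct2 rose by a log2 fold change of 0.79 (adjusted p = 3.92e-07 by edgeR), Llph by 0.56 and Cand1 by 0.22, while the call of Tmbim4 (0.18, adjusted p = 0.0231 by edgeR) was lost without DMSO replicate 1 (0.17, adjusted p = 0.0706) and by DESeq2 (0.18, adjusted p = 0.136). With offsets for length and GC content Tmbim4 was at 0.01 (adjusted p = 0.933 by edgeR). On the TPM scale Cand1 and Tmbim4 were at -0.02 and -0.07, and limma called neither.

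The promoters of Mdm2 and Slc35e3 were read from RefSeq on GRCm38.p6 because both transcripts were abundant and lower with risperidone, and that of Cdkn1a because its difference was the largest of the 10 genes. Each line gives the 250 bases before the annotated start, on the strand of the gene, and capitals mark a match to the p53 response element.
Mdm2: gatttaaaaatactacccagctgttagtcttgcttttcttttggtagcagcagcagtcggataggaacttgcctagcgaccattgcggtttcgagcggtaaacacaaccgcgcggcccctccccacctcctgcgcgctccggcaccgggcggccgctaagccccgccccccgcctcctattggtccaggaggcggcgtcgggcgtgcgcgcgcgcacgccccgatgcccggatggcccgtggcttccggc
Slc35e3: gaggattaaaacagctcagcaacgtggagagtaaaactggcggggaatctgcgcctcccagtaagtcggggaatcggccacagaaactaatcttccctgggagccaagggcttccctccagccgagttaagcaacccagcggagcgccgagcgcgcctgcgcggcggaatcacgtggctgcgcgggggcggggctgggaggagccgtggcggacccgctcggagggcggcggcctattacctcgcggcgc
Cdkn1a: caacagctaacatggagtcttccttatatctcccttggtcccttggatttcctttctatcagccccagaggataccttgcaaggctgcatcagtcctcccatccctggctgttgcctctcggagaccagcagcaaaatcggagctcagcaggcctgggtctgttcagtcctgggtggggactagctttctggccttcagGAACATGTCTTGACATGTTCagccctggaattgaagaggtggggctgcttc
The stretches lie at chr10:117710759-117711008 (minus strand), chr10:117746359-117746608 (minus strand) and chr17:29090729-29090978 (plus strand). Those of Mdm2 and Slc35e3 are rich in G and C (65.6% and 66.4%) and hold 29 and 27 CpG pairs, while the Cdkn1a stretch has 54% G and C and 2 CpG pairs. The search covered both strands of windows from 250 bases before to 50 after the start and took 2 half-sites of the p53 response element side by side, both cores intact, with up to 2 mismatches elsewhere. Of 14 promoters of 9 of the 10 genes, with no entry for Zmat3, 1 held a match, at the upstream start of Cdkn1a, where it begins 51 bases before the start with 1 mismatch. Of all 32851 RefSeq promoter windows, 52 held a match (0.158%), and of the 10639 windows of genes tested, 13 did (0.122%). The p53-responsive promoter of Mdm2 is known to lie inside the gene, outside this window. A match is a string of letters and not a measured binding site, and these data hold no binding measurement.

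Trp53 (NCBI Gene 22059, chr11:69580348-69591873, plus strand), the p53 gene, was at 33.0 and 34.6 FPKM with DMSO and at 25.8 and 23.0 FPKM with risperidone. All risperidone values lay below all DMSO values, at a log2 fold change of -0.37 (standard error 0.0728), with values between -0.47 and -0.28 with any 1 library left out. Mdm2 and Trp53 were thus lower by similar factors, and the ratio of Mdm2 to Trp53 FPKM overlapped between treatments, at 47.6 and 47.2 with DMSO and at 44.9 and 51.5 with risperidone.

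Mdm4 (NCBI Gene 17248, chr1:132986105-133030587, minus strand), which inhibits p53 as a partner of Mdm2, was far less abundant, at 7.66 and 7.98 FPKM with DMSO and at 6.30 and 7.09 FPKM with risperidone. Its log2 fold change was -0.09 (standard error 0.0710) and ranged from -0.18 to -0.01 with 1 library left out. With offsets that remove trends of length and GC content the sign turned, to 0.02. Mdm2 exceeded Mdm4 by 205 times in both DMSO libraries and by 184 and 167 times in the risperidone libraries, per length.

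Cdkn1a (NCBI Gene 12575, chr17:29090979-29100722, plus strand) encodes p21, the inhibitor of cyclin-dependent kinases through which p53 halts the cell cycle. It was at 62.4 and 67.9 FPKM with DMSO and at 29.1 and 28.7 FPKM with risperidone, from counts of 1817 and 1920 against 843 and 820. The treatments were widely separated. The log2 fold change of -1.07 (standard error 0.0622), 0.475 of the DMSO level, was the largest of the 10 genes in either direction. It lay between -1.13 and -1.01 with any 1 library left out.

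Ccng1 (NCBI Gene 12450, chr11:40748552-40755309, minus strand), the cyclin G1 gene, whose product brings a phosphatase to Mdm2, went the other way. It was at 39.3 and 40.4 FPKM with DMSO and at 45.2 and 48.1 FPKM with risperidone, without overlap, a log2 fold change of 0.31 (standard error 0.0489). Cdkn1a exceeded Ccng1 with DMSO, by ratios of 1.59 and 1.68, and was below it with risperidone, at 0.644 and 0.597.

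Phlda3 (NCBI Gene 27280, chr1:135766085-135769134, plus strand), whose product holds back the kinase Akt, was at 46.4 and 46.1 FPKM with DMSO and at 58.6 and 54.2 FPKM with risperidone. The values did not overlap, and the log2 fold change was 0.38 (standard error 0.0648). Zmat3 (NCBI Gene 22401, chr3:32334792-32365665, minus strand), an RNA-binding zinc finger gene, was at 5.18 and 5.27 FPKM with DMSO and at 5.40 and 5.47 FPKM with risperidone. This narrow gap corresponded to a log2 fold change of 0.15 (standard error 0.0566) after TMM scaling and to -0.08 on the TPM scale, where the sign reversed.

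Sesn1 (NCBI Gene 140742, chr10:41810574-41908436, plus strand), which encodes a sestrin that restrains mTORC1, was at 37.9 and 38.9 FPKM with DMSO and at 36.4 and 37.7 FPKM with risperidone. The FPKM ranges lay edge to edge, and the log2 fold change of -0.02 (standard error 0.0498) was smaller than its error. Its effective length was 2716 and 2749 bases with DMSO and 2614 and 2604 bases with risperidone, the clearest shift of this kind among the 10 genes, so the mix of Sesn1 transcripts assigned by the quantification differed between treatments. Bbc3 (NCBI Gene 170770, chr7:16308398-16318334, plus strand), the gene of the apoptosis inducer PUMA, was the lowest of the 10, at 1.89 and 2.0 FPKM with DMSO and at 1.70 and 1.49 FPKM with risperidone. These rest on 56 and 57 against 48 and 42 counts, and the log2 fold change of -0.23 was about as large as its standard error of 0.217.

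By mean FPKM over the 4 libraries the order was Mdm2 (1387), Slc35e3 (429), Phlda3 (51.3), Cdkn1a (47.0), Ccng1 (43.3), Sesn1 (37.7), Trp53 (29.1), Mdm4 (7.26), Zmat3 (5.33) and Bbc3 (1.77). The ranges over the 4 libraries of Phlda3 and Cdkn1a and of Cdkn1a and Ccng1 overlapped, because the order of Cdkn1a turned with treatment: with DMSO it lay above Phlda3, Ccng1 and Sesn1 in both libraries, and with risperidone below all 3. The other neighbours in this order did not overlap. The ratio of Cdkn1a to Trp53 FPKM was 1.89 and 1.96 with DMSO and 1.13 and 1.25 with risperidone. The ratio of Mdm2 to Cdkn1a was 25.2 and 24.0 with DMSO and 39.8 and 41.2 with risperidone.

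Rescaling to TPM moved these differences more than leaving out any 1 library did, Bbc3 excepted. On the TPM scale, where all genes tested had a median log2 fold change of -0.22, Mdm2 was at -0.60, Slc35e3 at -1.07, Trp53 at -0.61, Cdkn1a at -1.30, Mdm4 at -0.34 and Sesn1 at -0.19, while Ccng1 and Phlda3 were at 0.08 and 0.14. Offsets that remove trends of length and GC content left Mdm2 (-0.35), Slc35e3 (-0.84), Trp53 (-0.40) and Cdkn1a (-1.16) close to their TMM values, and moved Zmat3 to 0.27 and Phlda3 to 0.25.

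**Figure D3:**
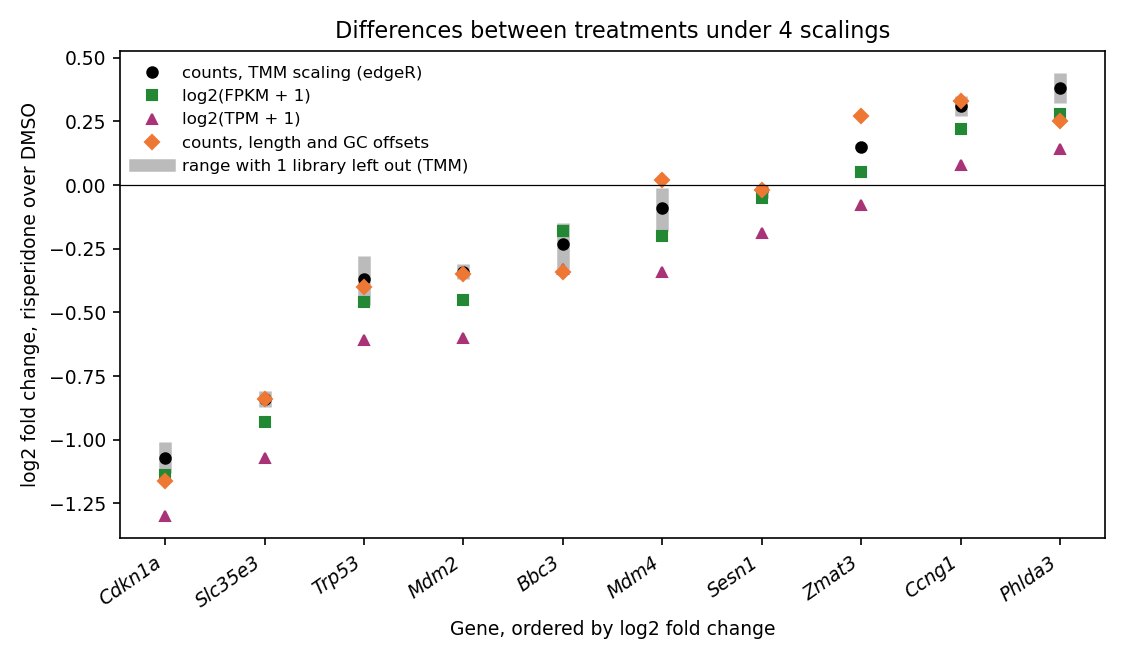
Log2 fold change (risperidone over DMSO) of each of the 10 genes under 4 scalings, with a grey bar for the range when 1 library is left out. Mdm2, Slc35e3, Trp53 and Cdkn1a are below 0 under each scaling shown, Ccng1 and Phlda3 above 0, and Zmat3 and Mdm4 change sign.

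The genes with the most similar profile were found by the distance of their log2 FPKM over the 4 libraries. Nearest to Mdm2 were Hsp90ab1 (distance 0.469), a chaperone gene, Ppia (0.545), the cyclophilin A gene, and Psap (0.562), a lysosomal saposin precursor gene. Of these, Ppia fell (log2 fold change -0.59), while Hsp90ab1 (0.07) and Psap (0.09) were not called and are near Mdm2 in level only. Nearest to Slc35e3 was Ptms (0.128), at 535 FPKM in both DMSO libraries and at 301 and 296 FPKM with risperidone, followed by Col4a2 (0.562) and S100a10 (0.573). This measure reflects level as much as treatment difference, since it sums both over only 4 libraries.

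The wider p53 pathway was read from a list of 81 other gene names, of which 75 had a row and 59 were tested. Of these, 26 rose and 12 fell with risperidone by edgeR's quasi-likelihood test, Benjamini-Hochberg adjusted, which is 44.1% and 20.3% beside 32.1% and 32.2% of all genes tested, and 21 did not pass the threshold. The median log2 fold change was 0.13, or -0.11 on the TPM scale beside a median of -0.22 for all genes. On that scale limma gave 16 higher and 21 lower, or 27.1% and 35.6% beside 15% and 51.7% of all genes tested. With each library left out in turn, 17 of the 26 that rose and 10 of the 12 that fell kept their call throughout. Without risperidone replicate 2, 24 were higher (40.7% beside 32.3% of all genes tested) and 15 lower (25.4% beside 32.7%). Of 38 tested target genes of p53, 18 rose (47.4%) and 6 fell (15.8%). Cdkn1a was thus lower while 18 of these other targets rose after TMM scaling, and their median of 0.18 was -0.06 on the TPM scale.

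**Figure D4:**
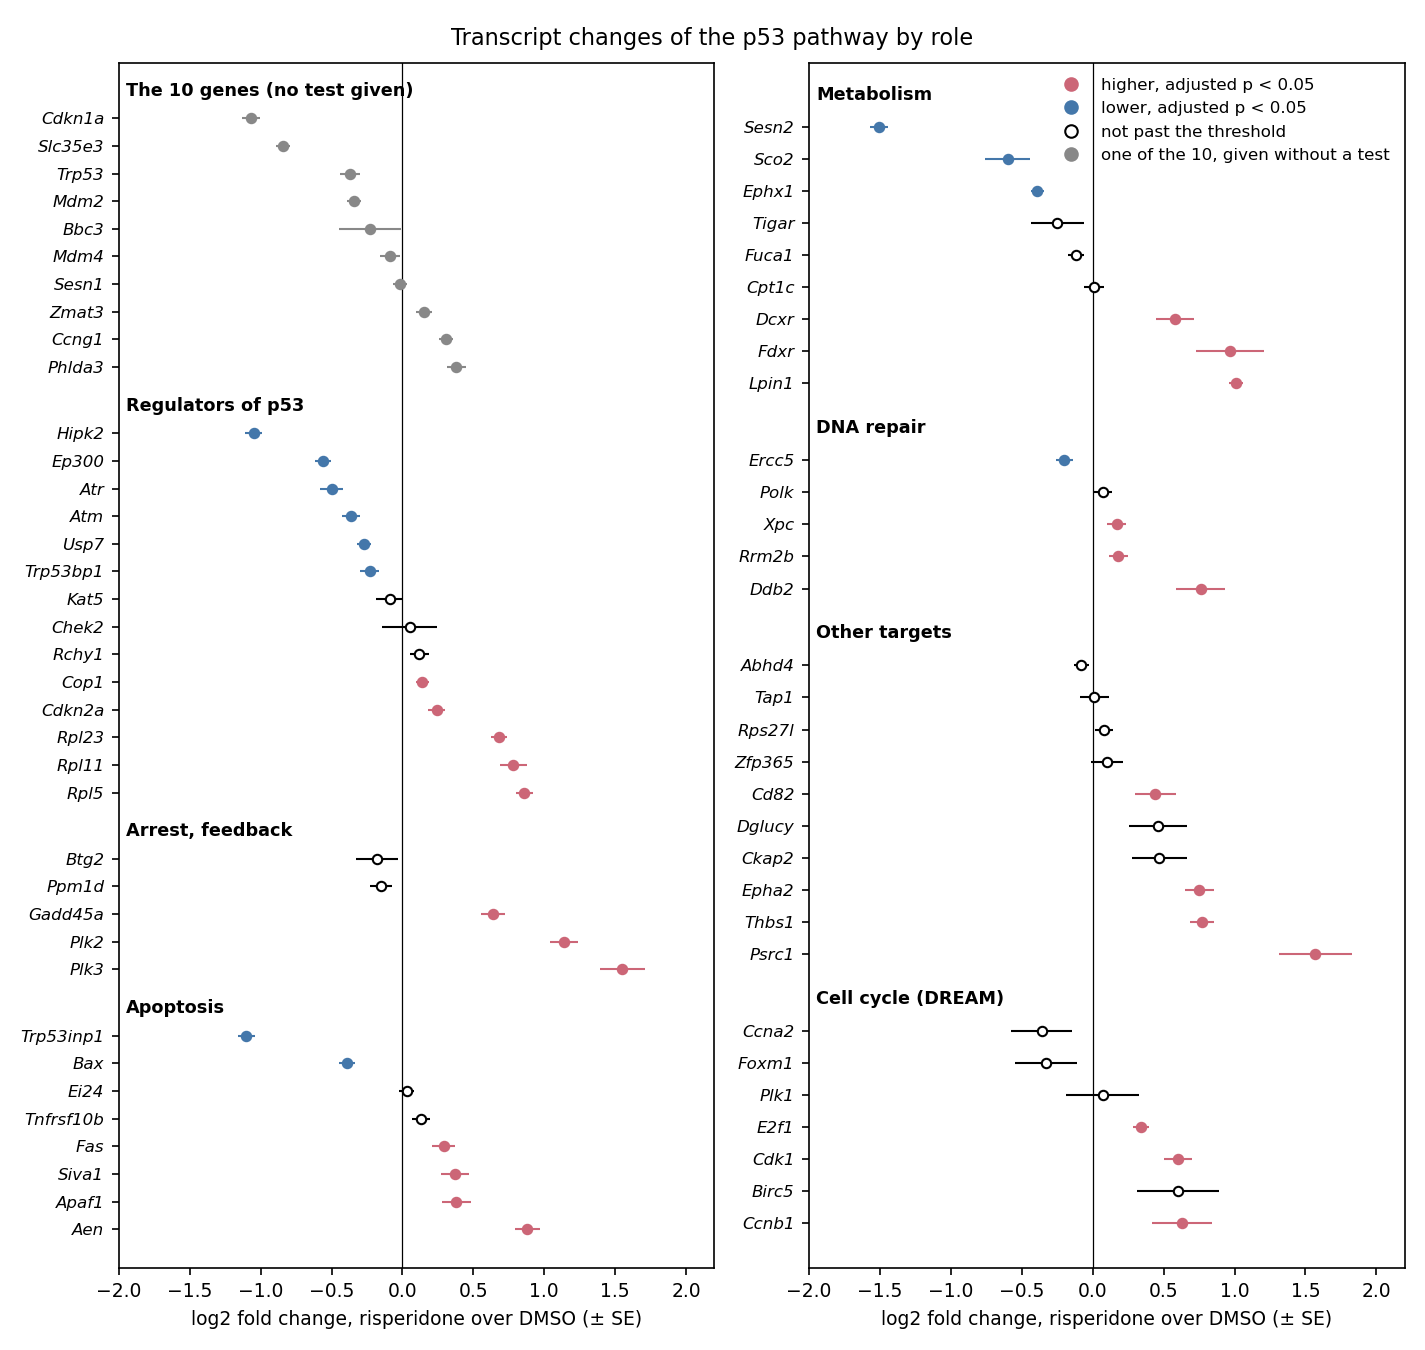
Log2 fold change (risperidone over DMSO) with its standard error for the 10 genes (grey, no test given) and 58 of the 59 tested genes of the pathway list by role. Sesn2 (-1.51) and Psrc1 (1.57) are the outermost genes shown, and higher and lower genes occur among the regulators, apoptosis, metabolism and DNA repair genes. Psrc1 passed the filter only through its risperidone level.

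Among 14 tested regulators of p53, 5 rose and 6 fell (35.7% and 42.9%, near the 32.1% and 32.2% of all genes tested). The smallest rises were those of Cop1 (0.14) and Cdkn2a (0.24), at 0.12 to 0.16 and 0.19 to 0.3 with 1 library left out. On the TPM scale they were at -0.11 and -0.0. The smallest decrease was that of Trp53bp1 (-0.23), at -0.3 to -0.16 with 1 library left out. Cop1, Cdkn2a and Trp53bp1 were named after their values were seen. Hipk2, a kinase that phosphorylates p53, was at 32.6 and 29.4 FPKM with DMSO and at 13.6 and 15.2 FPKM with risperidone. It fell by 1.05 on the log2 scale (standard error 0.0620, adjusted p = 2.03e-07 by edgeR's quasi-likelihood test, Benjamini-Hochberg adjusted). The acetyltransferase gene Ep300 (log2 fold change -0.56) and the DNA damage kinase genes Atr (-0.50) and Atm (-0.36), named after their values were seen, also fell. Rpl5 (0.86) and Rpl11 (0.78), ribosomal proteins that bind and inhibit Mdm2, rose, with the limit that processed copies of ribosomal protein genes in the genome can share their reads. Rpl23 (0.68), also on the list, rose too. So did ribosomal protein genes off the list, such as Rps7 (0.85), Rpl35 (0.89) and Rps4x (0.75). These were named after their values were seen, and the rest of this class was not read here. The rise was therefore not particular to Rpl5 and Rpl11.

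Of 5 tested targets in cell cycle arrest and feedback, 3 rose (60% beside 32.1% of all genes tested) and 0 fell (beside 32.2%) in edgeR's quasi-likelihood test, and also 0 fell at an unadjusted p under 0.05 or by DESeq2. Plk3, a polo-like kinase gene, was at 2.02 and 1.79 FPKM with DMSO and at 5.56 and 4.89 FPKM with risperidone, a log2 fold change of 1.55. Its relative Plk2 rose by 1.14 and Gadd45a, a growth arrest gene, by 0.64 on the same scale. The risperidone values of all 3 were above their DMSO values, the reverse of Cdkn1a.

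Of 8 tested apoptosis targets, 4 rose and 2 fell (50% and 25% beside 32.1% and 32.2%), but with each library left out in turn only 1 of the 4, Aen, kept its call, as did both that fell. Apaf1 lost it without DMSO replicate 2 (log2 fold change 0.32), Fas without DMSO replicate 1 (0.26) or 2 (0.32), and Siva1 without DMSO replicate 1 or risperidone replicate 1 (0.26 in each). Trp53inp1, a stress-induced regulator of p53 activity, was at 24.3 and 25.4 FPKM with DMSO and at 10.4 and 11.3 FPKM with risperidone, and fell by 1.10 on the log2 scale (standard error 0.0582). Bax, the pore-forming effector of mitochondrial apoptosis, fell by 0.39, from 61.1 and 59.7 to 43.6 and 42.2 FPKM. Aen, a p53-induced nuclease gene, rose by 0.88. Pmaip1 and Perp, the genes of further death effectors, had 3 and 9 counts in risperidone replicate 2, the library with kidney transcripts, and 0 counts in the other 3 libraries, which allows up to 3 counts or 0.183 to 0.189 CPM (counts scaled to library depth) in each, a limit that covers counting error only.

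Of 9 tested metabolic targets, 3 rose and 3 fell (33.3% each, near the 32.1% and 32.2% of all genes tested). Sesn2, a sestrin like Sesn1, was at 21.2 and 22.0 FPKM with DMSO and at 6.84 and 7.32 FPKM with risperidone, the largest decrease on the list at -1.51 (standard error 0.0634, adjusted p = 2.61e-08 by edgeR's quasi-likelihood test, Benjamini-Hochberg adjusted). Sesn1 was thus near 0 while Sesn2 fell. Lpin1, a phosphatidate phosphatase gene of lipid synthesis, rose by 1.01 on the log2 scale. Fdxr, a mitochondrial reductase gene, rose by 0.97 from 3.14 and 1.73 to 4.57 and 4.37 FPKM, and its value was 0.59 without DMSO replicate 2 and 1.48 without DMSO replicate 1.

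Of 5 tested DNA repair targets, 3 rose and 1 fell (60% and 20% beside 32.1% and 32.2%), but with each library left out in turn 1 of these calls, that of Ddb2, was kept. Ddb2, which recognises damage by ultraviolet light, rose by 0.76 on the log2 scale. Ercc5, a repair nuclease gene, had a log2 fold change of -0.20 and Xpc, a damage sensor gene, one of 0.17, and neither held throughout. The adjusted p of Ercc5 in edgeR's quasi-likelihood test was 0.0138 and became 0.0746 without DMSO replicate 2. That of Xpc was 0.0446 and became 0.112 without DMSO replicate 1, 0.0612 without DMSO replicate 2 and 0.168 without risperidone replicate 1, and its sign reversed on the TPM scale (-0.07). Rrm2b, a ribonucleotide reductase gene named after its values were seen, was at 0.18, lost its call without DMSO replicate 1 (0.14) or risperidone replicate 2 (0.15), and was at -0.05 on the TPM scale.

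Of 11 other tested targets, 5 rose (45.5% beside 32.1% of all genes tested) and 0 fell (beside 32.2%) in edgeR's quasi-likelihood test, and also 0 fell at an unadjusted p under 0.05 or by DESeq2. Psrc1, a microtubule-associated gene, was at 0.80 and 0.86 FPKM with DMSO and at 2.53 and 2.09 FPKM with risperidone, and rose by 1.57 on the log2 scale. It passed the filter only through its risperidone level, the means being 0.83 FPKM with DMSO and 2.31 FPKM with risperidone. Its counts were 21 and 22 with DMSO and 66 and 54 with risperidone. It is counted among the genes that rose, but nothing is read from its call. Thbs1, the thrombospondin 1 gene, rose by 0.77. Of 7 tested cell cycle genes that p21 is known to lower through the DREAM complex, 3 rose (42.9% beside 32.1% of all genes tested) and 0 fell (beside 32.2%) in edgeR's quasi-likelihood test, and also 0 fell at an unadjusted p under 0.05 or by DESeq2. Cdk1, the mitotic kinase gene, was at 5.07 and 5.43 FPKM with DMSO and at 7.73 and 7.17 FPKM with risperidone, a log2 fold change of 0.60. Foxm1, a transcription factor gene of the G2 phase, was at 1.56 and 1.44 FPKM with DMSO and at 0.87 and 1.37 FPKM with risperidone, a log2 fold change of -0.33 that did not pass the threshold (adjusted p = 0.208 by edgeR). Ccna2, the cyclin A2 gene, was at 1.67 and 1.93 FPKM with DMSO and at 1.10 and 1.49 FPKM with risperidone, a log2 fold change of -0.36 (adjusted p = 0.165 by edgeR), so in both genes each risperidone value lay below each DMSO value. Birc5 (0.60) and Plk1 (0.07) did not pass the threshold, and their treatments overlapped. These 4 genes were named after their values were seen. E2f1 rose by 0.34, and on the TPM scale its value of 0.10 was not past the threshold. The call of Ccnb1 (0.63), the cyclin B1 gene, at 1.29 and 1.18 against 1.72 and 1.86 FPKM, was lost without DMSO replicate 1, DMSO replicate 2 or risperidone replicate 2 (adjusted p of 0.0748, 0.135 and 0.0538 by edgeR's quasi-likelihood test, Benjamini-Hochberg adjusted).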

How the data were processed

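mRNA of 4 libraries of 3T3-L1 cells, described as differentiated, was sequenced on an MGISEQ-2000, and the submitters' processing notes name Bowtie2, RSEM, DESeq2 and the build GRCm38.p6, while versions and the annotation are not given in the sources used here. The authors deposited, for each of 16051 genes, an estimated count (expected count, not normalized), an FPKM value and a TPM value per library, and group averages that were not used. Between 91.2% and 91.7% of the counts of a library were deposited as whole numbers, with no decimal part. Gene positions, names and promoters were taken from RefSeq on GRCm38.p6. Gene strands came from GENCODE, and the length and GC content behind the offsets were those of the longest GENCODE transcript of each gene.

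The 10 genes, the pathway list, the kidney markers and the tests were chosen with earlier results of these data known. Counts were rounded, the 10243 genes whose mean reached 1 FPKM were kept, and edgeR 4.0.16 in R 4.3.3 (TMM factors 0.963 to 1.03, quasi-likelihood F-test, two-sided, Benjamini-Hochberg adjustment over all genes tested, threshold 0.05, biological coefficient of variation 0.0468) compared the 2 risperidone with the 2 DMSO libraries. The standard error of a log2 fold change is its size over the root of the F statistic. Replicates differed by more than counting error, with 12.4% of genes past the 5% chi-square point with DMSO and 23.6% with risperidone. The p-values set each difference against the spread between pooled libraries, and they do not cover the spread between single cultures or between experiments. The named genes were the 10 genes, up to 3 changed genes without overlap between treatments per role of the pathway list, the 3 genes nearest to Mdm2 on each side and the 5 highest neighbours, and the 3 most similar profiles. Apaf1, Fas, Siva1, Pmaip1, Perp and Helb, and the genes marked so above, were named outside these rules after their values were seen. Alternatives were RLE and library-size scaling, offsets for length and GC content (mgcv 1.9.3), no filter, a mean of at least 5 FPKM, DESeq2 1.42.0, limma 3.58.1 on log2(FPKM + 1), log2(FPKM + 0.1) and log2(TPM + 1), a term for the replicate number, and each library left out. For 1 tested gene of the pathway list, counted in the totals, the values are not reported here.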

Additional observations from a re-analysis of the deposited data

How the results depend on the processing

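For the 10 genes, 119 of 149 alternative values moved by less than the spread between replicates, 29 moved by more with the same sign and Zmat3 turned to -0.08 on the TPM scale. Among the values that moved by less, Mdm4 also changed sign, from -0.09 to 0.02 with offsets for length and GC content. For the named pathway genes, 292 of 310 kept direction and call, 17 lost the call and Xpc reversed on the TPM scale (-0.07). Of the pathway list, 26 were higher and 12 lower. These numbers were 17 higher with a mean of at least 5 FPKM, where fewer genes are tested, and 16 higher and 21 lower on the TPM scale, whose median over all genes was -0.22. With 1 library left out they were 18 to 24 higher and 10 to 15 lower. Of the Mdm2 neighbours, 6 were higher and 2 lower. With limma on FPKM, at either pseudocount, 3 were higher (16.7% beside 23.6% or 23.7% of all genes tested) and 4 lower (22.2% beside 38.8%), and on TPM 3 and 7. With library size as the only scaling 7 were lower (38.9% beside 39.9% of all genes tested), and with 1 library left out 4 to 6 were higher and 2 to 4 lower, the 4 without risperidone replicate 2. The causes were not tested. No source ties equal replicate numbers to shared cultures, and deviations of same-numbered libraries did not correlate positively (-0.138). With the replicate block 29 pathway genes were higher and 12 lower, 6 and 2 neighbours, and 7 of the 10 genes were below 0. The crossed pairing, chosen after seeing the data, gave 28 and 13, and 6 and 2. All genes tested counted 3287 higher and 3303 lower, and 1536 and 5292 on TPM. By CPM over the reference length of each gene, Mdm2 ranked 24 and Slc35e3 119 in place of 49 and 170. At the counts of Bbc3 (42 to 57) a log2 fold change had a standard error of 0.217, so a difference as small as its -0.23 was not resolved.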
